A study of Mus musculus with 12 samples.

Results

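The neural stem cell identity genes described here are 10 genes by whose expression neural stem and progenitor cells are recognised: the transcription factors Sox2, Sox9, Nr2e1 and Pax6, the RNA-binding proteins Msi1 and Msi2, the intermediate filament proteins Nes and Vim, the lipid-binding protein Fabp7 and the membrane protein Prom1. They were chosen by name, with earlier results of these data known, so their direction is not independent evidence. Each was found as 1 row of its own among the 40597 loci of the deposited table. RNA was measured in neurospheres, floating balls of progenitor and stem cells, cultured from the dissociated hypothalamus of fetal wild-type C57Bl/6 mice at embryonic day 14.5. The 4 groups were male neurospheres under dexamethasone, male neurospheres under vehicle, female neurospheres under dexamethasone and female neurospheres under vehicle, with 3 libraries in each. Dexamethasone is a synthetic glucocorticoid. It was given at 100 nM for 4 hours at passage 3, and the vehicle was ethanol. The labels number the libraries as biological replicates but do not say whether they came from separate animals, litters or cultures, and p-values therefore describe only how far these libraries differ.

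In the embryonic brain, radial glia and other neural stem cells divide to renew themselves and to give rise to neurons, astrocytes and oligodendrocytes. SOX2 keeps progenitors undifferentiated, SOX9 is required for stem cells to be set up and later for glia to form, and the orphan nuclear receptor NR2E1, also called TLX, represses genes of differentiation and cell cycle arrest. The Musashi proteins bind messenger RNAs and alter their translation, while nestin and vimentin build the filaments of radial glia.

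When the effect was averaged over the sexes, 2 of the 10 genes fell under dexamethasone, the RNA-binding Msi1 and the nuclear receptor Nr2e1. Msi1 averaged 16.5 ± 2.54 FPKM under dexamethasone and 26.2 ± 3.43 FPKM under vehicle (SD, n = 6 each). Nr2e1 averaged 3.85 ± 0.973 FPKM under dexamethasone and 6.17 ± 0.975 FPKM under vehicle (SD, n = 6 each). FPKM are fragment abundances divided by transcript length and library size, so levels are per length. Sox2 and Sox9 had lower means under dexamethasone but adjusted p-values of 0.0915 and 0.0912. The other 6 genes did not pass the test, with log2 fold changes of -0.29 to 0.14. Tests were made with limma on log2(FPKM + 1) over all 14931 loci that averaged at least 1 FPKM, with Benjamini-Hochberg adjustment over all of them, and a call needed an adjusted p under 0.05. On this scale changes of low genes are understated. In the averaged effect 1.53% of all loci were called, 0.388% as lower, against 2 of 10 here, both lower. Those loci were 171 higher and 58 lower, and with libraries scaled to their protein-coding sum 132 were called higher and 78 lower.

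Since the cultures are mixtures, fewer cells of a type and less RNA per cell cannot be told apart in these values.

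All 10 genes passed the filter, and their levels differed widely. Fabp7, which binds fatty acids in radial glia, averaged 3503 FPKM over the 12 libraries and ranked 4 among the 10637 protein-coding loci tested. Vim, the vimentin gene, followed at 2497 FPKM and rank 7. Both stood far above the rest of the set, and their ranges of 2912 to 4526 and 2165 to 2980 FPKM overlapped.

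Nes, which encodes nestin, averaged 128 FPKM, Sox2 averaged 106 FPKM and Msi2 averaged 93.6 FPKM. These neighbours overlapped from library to library, with ranges of 81.6 to 186, 81.3 to 158 and 71.1 to 115 FPKM. Pax6 at 24.7 FPKM and Msi1 at 21.3 FPKM overlapped in the same way, over 15.0 to 31.8 and 14.1 to 32.6 FPKM. Sox9 averaged 13.3 FPKM, Nr2e1 averaged 5.01 FPKM, and Prom1, the gene of the membrane protein CD133, was lowest at 1.88 FPKM and rank 9825. The spread within a group, as an SD on the log2 scale, went from 0.11 for Vim to 0.37 for Pax6, and the median of all loci tested was 0.22.

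**Figure D1:**
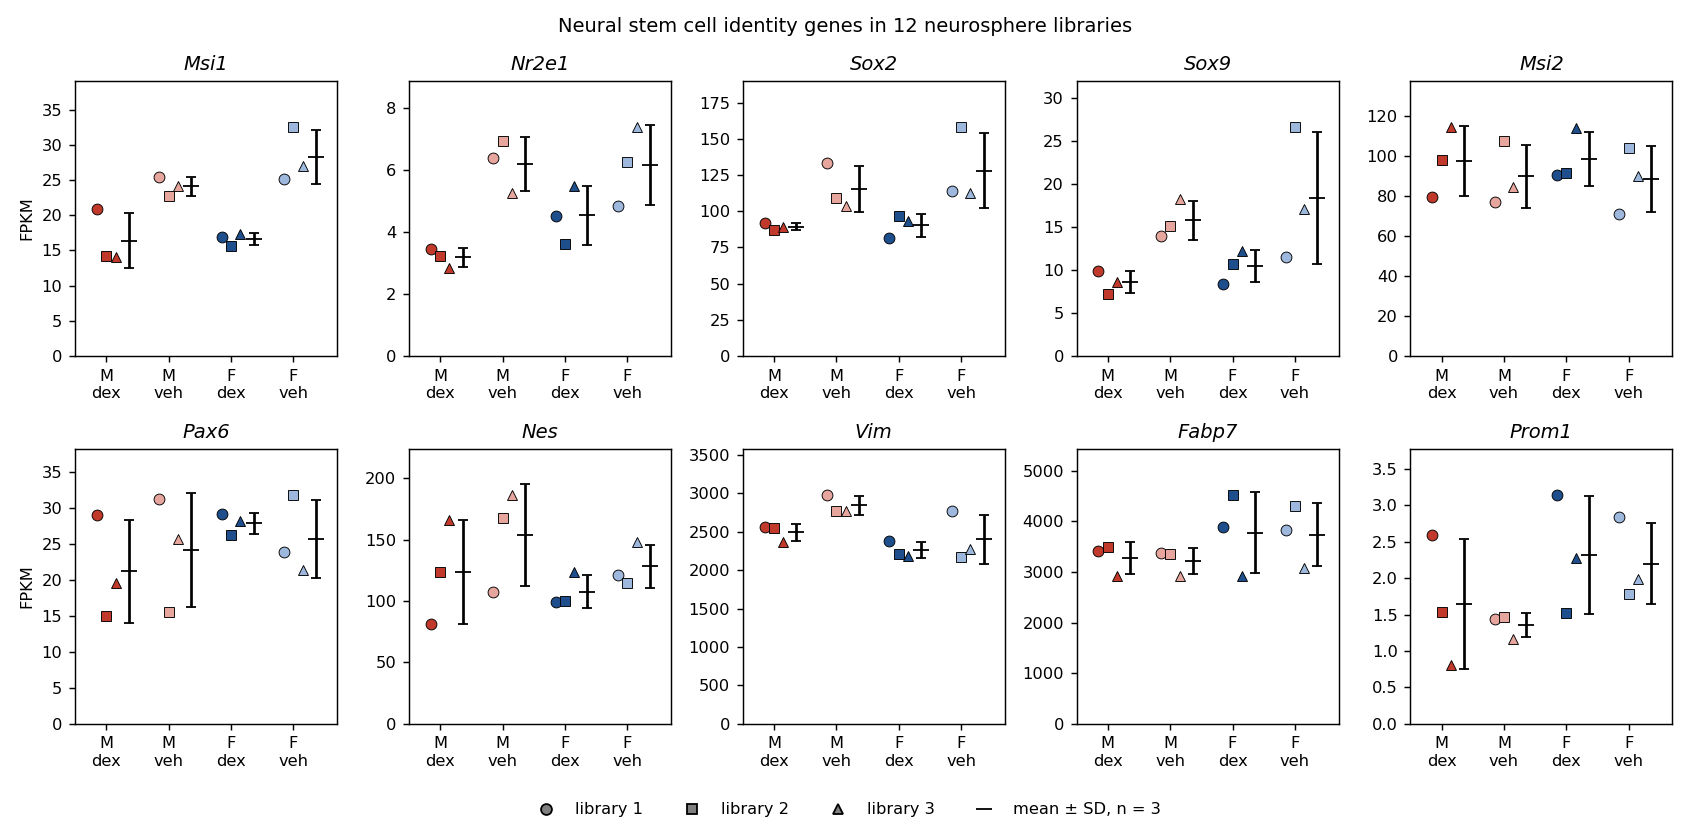
FPKM of each of the 10 genes (y axis, linear from 0) in male (M, red) and female (F, blue) libraries under dexamethasone (dex, dark) and vehicle (veh, light), with the library number as the marker and the mean ± SD of 3 libraries as the bar. The 6 dexamethasone libraries lie below the 6 vehicle libraries for Msi1 and Sox2, with 14.1 to 20.9 against 22.7 to 32.6 FPKM for Msi1 and 81.3 to 96.8 against 103 to 158 FPKM for Sox2.

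Promoter windows of RefSeq (GRCm38.p6), reaching from 250 bases before an annotated start to 50 bases after it, were matched by symbol for 8 of the 10 genes. Msi1 and Sox9 were not matched. The 8 genes have 12 windows, since Msi2 has 3, Pax6 has 2 and Prom1 has 2. They were searched on both strands for 4 short motifs. The glucocorticoid receptor palindrome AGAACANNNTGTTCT stood in 0 of the 12 windows, and in 0.00913% of all 32851 windows. Its half-site AGAACA, which forms part of the palindrome, stood in 2 of the 12 windows, 1 each of Nes and Prom1, and in 19.0% of all windows. The SOX site ACAAAG stood in 3 of the 12 windows, 1 each of Nr2e1, Pax6 and Sox2, and in 18.7% of all windows. The cyclic AMP response element TGACGTCA stood in 5 of the 12 windows and in 1.79% of all windows. The 5 are 1 each of Nr2e1 and Pax6 and the 3 of Msi2, which overlap and hold the same site, so they stand for 3 sites. These are matches of letters and say nothing of binding. The windows of Nr2e1, the called transcription factor with a window, of Sox2, whose dexamethasone and vehicle libraries did not overlap, and of Nes, which holds a receptor half-site, are printed 5′ to 3′ on the gene's strand, from 250 bases before the RefSeq start to 30 bases from it. For Sox2 the RefSeq start lies upstream of the GENCODE M21 start given further on, and the printed stretch ends before that GENCODE start. Capitals mark the motif matches, none of which overlap one another here: the cyclic AMP response element and then the SOX site in Nr2e1 (chr10:42583561-42583840, minus strand), the SOX site in Sox2 (chr3:34649745-34650024, plus strand) and the half-site, read on the other strand, in Nes (chr3:87970843-87971122, plus strand).
Nr2e1: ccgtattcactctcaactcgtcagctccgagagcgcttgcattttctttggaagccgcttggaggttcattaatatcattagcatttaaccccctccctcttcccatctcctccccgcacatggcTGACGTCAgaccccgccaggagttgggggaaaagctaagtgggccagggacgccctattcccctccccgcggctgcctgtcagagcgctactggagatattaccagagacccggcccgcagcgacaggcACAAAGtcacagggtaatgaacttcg
Sox2: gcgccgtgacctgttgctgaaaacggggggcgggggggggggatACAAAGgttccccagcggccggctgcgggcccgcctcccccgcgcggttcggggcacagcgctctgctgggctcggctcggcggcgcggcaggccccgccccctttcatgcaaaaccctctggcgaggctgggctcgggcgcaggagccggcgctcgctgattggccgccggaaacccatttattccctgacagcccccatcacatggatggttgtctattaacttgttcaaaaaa
Nes: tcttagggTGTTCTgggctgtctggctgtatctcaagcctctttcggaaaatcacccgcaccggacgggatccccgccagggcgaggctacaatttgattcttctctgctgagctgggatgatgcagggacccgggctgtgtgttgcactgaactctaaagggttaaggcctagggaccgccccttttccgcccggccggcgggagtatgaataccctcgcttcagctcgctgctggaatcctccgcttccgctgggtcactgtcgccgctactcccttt

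Facts of the whole series bear on these values. Per library, 13755 to 14826 loci reached 1 FPKM, and pairwise correlations of log2 values over tested loci were 0.878 to 0.918. FPKM carry no counts and the absolute depth is unknown. The value of 1 fragment, read from loci undetected in at least 6 libraries, differed up to 1.61-fold between libraries. Unnamed loci held 75.0% of all FPKM in male vehicle library 3 and 53.1% in male dexamethasone library 2, against 11.6% to 38.6% elsewhere. Xist, the RNA of the inactive X chromosome, was at 14.1 FPKM in male dexamethasone library 2 and 3.04 FPKM in male vehicle library 2, and at most 0.0466 FPKM in the other 4 male libraries, against 136 to 328 FPKM in female libraries. The hypothalamic label rests on few of its markers. Of 12 hypothalamic markers 2 averaged at least 1 FPKM, the homeobox genes Six3 and Nkx2-2, and 8 averaged under 0.1 FPKM, among them Nkx2-1, Rax, Six6, Otp, Sim1, Isl1 and Lhx1. In the female libraries numbered 2, Six3 was at 0.0702 FPKM under dexamethasone and 0.0640 FPKM under vehicle, against 7.45 to 50.6 FPKM in the other 10 libraries. None of 8 telencephalic, 10 microglial and 6 erythroid markers averaged 1 FPKM. The forebrain homeobox genes Emx2 and Lhx2 were not on the telencephalic list but on a wider stem cell list, and averaged 4.41 and 2.18 FPKM. All 6 textbook glucocorticoid-induced genes checked (Fkbp5, Klf9, Tsc22d3, Zbtb16, Per1 and Fam107a) were called higher under dexamethasone, with log2 fold changes of 1.91 to 4.69.

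Among the transcription factors, Nr2e1 was read at 3.45, 3.23 and 2.84 FPKM in male dexamethasone libraries, against 6.37, 6.93 and 5.25 FPKM in male vehicle libraries. In females it was at 4.50, 3.60 and 5.49 FPKM under dexamethasone, against 4.82, 6.26 and 7.38 FPKM under vehicle. The male groups did not overlap, while in females dexamethasone library 3 was above vehicle library 1. Averaged over the sexes Nr2e1 fell by 0.57 on the log2 scale (SE 0.12, 95% interval -0.84 to -0.31), a ratio of means of 0.624, with an adjusted p of 0.0475 (limma). That call sits close to the threshold. Leaving out either female dexamethasone library 3 or female vehicle library 1 left it called, and leaving out any 1 of the other 10 libraries, male or female, gave adjusted p-values of 0.0599 to 0.125. It was not called either with a pseudocount of 5 FPKM (adjusted p = 0.0610), with other filters (0.0742 and 0.0968) or with quantile normalization (0.0702). Nor was it called without any of 3 library pairs that hold a library standing apart (0.121 to 0.237).

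Nr2e1 lies on the minus strand of chromosome 10 (chr10:42561963-42583632, GRCm38, GENCODE M21). The protein-coding gene Ostm1, on the plus strand, falls in the same stretch of chromosome 10 in the deposited table. Ostm1 was at 18.8 ± 1.51 FPKM under dexamethasone and 17.1 ± 1.75 FPKM under vehicle (SD, n = 6 each), and it was not called (limma, adjusted p = 0.433). Its mean was higher under dexamethasone, where that of Nr2e1 was lower. The same stretch holds Gm15200, listed as antisense and on the minus strand like Nr2e1. Gm15200 was at 8.65 ± 1.93 FPKM under dexamethasone and 7.36 ± 1.92 FPKM under vehicle (SD, n = 6 each; limma, adjusted p = 0.654).

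Sox2, on chromosome 3 (chr3:34650405-34652461), was at 91.8, 87.2 and 88.9 FPKM in male dexamethasone libraries, against 134, 109 and 103 FPKM in male vehicle libraries. Its values in females were 81.3, 96.8 and 93.0 FPKM under dexamethasone, against 114, 158 and 112 FPKM under vehicle. Every dexamethasone library of either sex was below every vehicle library, an order that 0.804% of all loci tested also showed. The averaged log2 fold change was -0.42 (SE 0.10, 95% interval -0.65 to -0.19) and the ratio of means was 0.738, with an adjusted p of 0.0915 (limma), so it was not called. It was called only when libraries were scaled to their protein-coding sum (adjusted p = 0.0422), among the alternatives without a replicate block. Among the 14931 loci it ranked 337 by p, and 6.62% of loci had a lower log2 fold change. Sox2 lies within the long non-coding gene Sox2ot, whose joined row had 16.4, 52.3 and 132 FPKM in male dexamethasone libraries, against 99.5, 73.2 and 91.0 FPKM in male vehicle libraries. In females that row had 8.11, 56.0 and 30.6 FPKM under dexamethasone, against 12.0, 68.7 and 106 FPKM under vehicle. The host gene's groups overlapped in both sexes. Its mean was lower under dexamethasone, as for Sox2, with a log2 fold change of -0.84 but a wide spread (SE 0.67, 95% interval -2.34 to 0.66; limma, adjusted p = 0.614).

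Sox9, on chromosome 11 (chr11:112782224-112787760), was at 9.83, 7.25 and 8.61 FPKM in male dexamethasone libraries, against 13.9, 15.1 and 18.3 FPKM in male vehicle libraries. Female values were 8.41, 10.7 and 12.1 FPKM under dexamethasone, against 11.4, 26.6 and 17.1 FPKM under vehicle. The 6 against 6 libraries overlapped at 1 place, female dexamethasone library 3 above female vehicle library 1. Sox9 had the largest difference of the 10 genes, a log2 fold change of -0.76 (SE 0.18, 95% interval -1.16 to -0.35) and a ratio of means of 0.556, and 2.88% of loci had a lower value. Its within-group SD of 0.34 was nearly that of the most variable of the 10, and it was not called (limma, adjusted p = 0.0912). Without female vehicle library 1 it was called, with a log2 fold change of -0.90 and an adjusted p of 0.0218. The other 11 fits that each left out 1 library did not call Sox9, at adjusted p-values of up to 0.215 (limma).

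Pax6, a patterning factor of the forebrain and eye on chromosome 2 (chr2:105668900-105697364), showed no such order. In males it was at 29.0, 15.0 and 19.6 FPKM under dexamethasone, against 31.3, 15.6 and 25.7 FPKM under vehicle. The female libraries gave 29.1, 26.3 and 28.2 FPKM under dexamethasone, against 23.9, 31.8 and 21.4 FPKM under vehicle. The groups overlapped in both sexes, the averaged log2 fold change was -0.02 (SE 0.20, 95% interval -0.46 to 0.41) and the adjusted p was 0.973 (limma). The interval allows a fall of the size seen for Sox2. Its antisense gene Pax6os1 was listed at 0 in all 12 libraries, and the neighbouring Elp4 was at 28.9 ± 4.42 FPKM under dexamethasone and 27.4 ± 3.13 FPKM under vehicle (SD, n = 6 each).

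Of the Musashi pair, Msi1 was called and Msi2 was not. Msi1, on chromosome 5 (chr5:115429599-115455698), was at 20.9, 14.2 and 14.1 FPKM in male dexamethasone libraries, against 25.4, 22.7 and 24.2 FPKM in male vehicle libraries. In females it was at 16.9, 15.7 and 17.3 FPKM under dexamethasone, against 25.2, 32.6 and 27.0 FPKM under vehicle. The groups did not overlap in either sex, and all dexamethasone libraries were below all vehicle libraries, as at 0.804% of all loci tested. Msi1 fell by 0.64 on the log2 scale (SE 0.10, 95% interval -0.87 to -0.40), a ratio of means of 0.631, with an adjusted p of 0.0151 (limma). It ranked 122 of the 14931 loci by p, and remained called with each of the 12 libraries left out in turn, at adjusted p-values of 0.00162 to 0.0461. Msi1 was not called without both male libraries numbered 2, both male libraries numbered 3 or both female libraries numbered 2. Its log2 fold changes were then -0.61, -0.59 and -0.56 (limma, adjusted p of 0.0941, 0.0824 and 0.0906). In the first pair both libraries stood apart in Xist, and in the last both did in Six3. Of the male libraries numbered 3 only the vehicle library did, in unnamed loci (75.0%, against 38.6% under dexamethasone).

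Msi2, its paralog on chromosome 11 (chr11:88339382-88718513), was at 79.5, 98.1 and 115 FPKM in male dexamethasone libraries, against 77.2, 108 and 84.7 FPKM in male vehicle libraries. Female libraries were at 90.4, 91.4 and 114 FPKM under dexamethasone, against 71.1, 104 and 90.3 FPKM under vehicle. The groups overlapped in both sexes, and the averaged log2 fold change was 0.14 (SE 0.13, 95% interval -0.16 to 0.43) with an adjusted p of 0.661 (limma). The intervals of the 2 genes did not overlap. Msi2 exceeded Msi1 per length in every library. The ratio of Msi2 to Msi1 FPKM was 3.80, 6.90 and 8.15 in male dexamethasone libraries and 5.34, 5.83 and 6.58 in female dexamethasone libraries, against 3.04, 4.74 and 3.50 in male vehicle libraries and 2.82, 3.19 and 3.35 in female vehicle libraries. Male dexamethasone library 1 was under male vehicle library 2, and every other dexamethasone library was above every vehicle library. The ratio was chosen after its values were seen and was not tested.

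**Figure D2:**
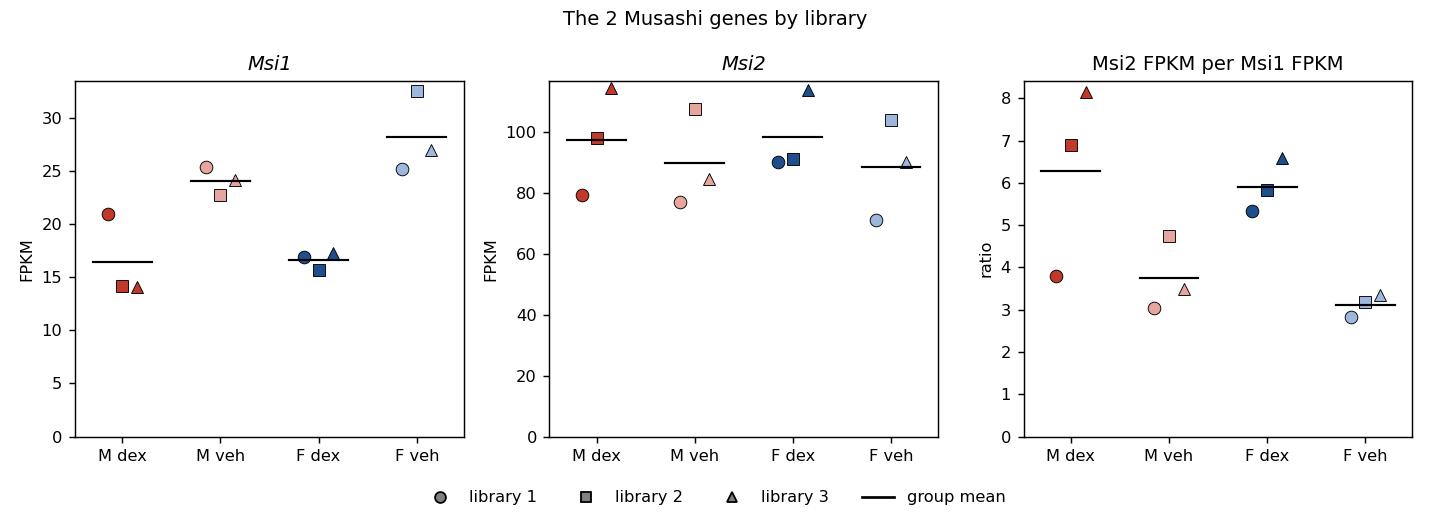
FPKM of Msi1 and Msi2 and the ratio of Msi2 to Msi1 FPKM in each library (y axes, linear from 0), for males (M, red) and females (F, blue) under dexamethasone (dex, dark) and vehicle (veh, light), with group means as lines. The ratio lies between 3.80 and 8.15 under dexamethasone and between 2.82 and 4.74 under vehicle, while the Msi2 groups overlap.

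The filament genes were not called. Nes, on chromosome 3 (chr3:87971078-87980451), was at 81.6, 124 and 166 FPKM in male dexamethasone libraries, against 107, 168 and 186 FPKM in male vehicle libraries. Female values were 99.0, 100.3 and 123 FPKM under dexamethasone, against 121, 115 and 148 FPKM under vehicle. The groups overlapped in both sexes, and in males the values ran over a wide range under either treatment. The averaged log2 fold change was -0.29 (SE 0.19, 95% interval -0.71 to 0.13; limma, adjusted p = 0.529).

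Vim, on chromosome 2 (chr2:13573927-13582826), was at 2555, 2552 and 2367 FPKM in male dexamethasone libraries, against 2980, 2773 and 2770 FPKM in male vehicle libraries, with no overlap. Female Vim values were 2375, 2211 and 2182 FPKM under dexamethasone, against 2767, 2165 and 2269 FPKM under vehicle, and these overlapped. The averaged log2 fold change was -0.14 (SE 0.08, 95% interval -0.32 to 0.05; limma, adjusted p = 0.509). Vim was the steadiest of the 10 genes within groups, and in this fit the interval excludes a fall as large as that of Msi1. Over the 25 settings, the main one included, its log2 fold change ran from -0.43 to -0.08, and 0 of them called it.

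Fabp7, on chromosome 10 (chr10:57784881-57788450), ran from 2912 to 4526 FPKM under dexamethasone and from 2924 to 4305 FPKM under vehicle, with an averaged log2 fold change of 0.02 (SE 0.13, 95% interval -0.28 to 0.31; limma, adjusted p = 0.974). Prom1, on chromosome 5 (chr5:43993620-44102032), ran from 0.807 to 3.14 FPKM under dexamethasone and from 1.16 to 2.83 FPKM under vehicle, and its log2 fold change was 0.08 (SE 0.19, 95% interval -0.35 to 0.50; limma, adjusted p = 0.891). The most abundant gene of the set and the least abundant one thus both lay close to 0 in this fit, the first within a narrower interval. At the low level of Prom1 the added 1 FPKM shrinks its change and its interval, and its ratio of means was 1.11. Fabp7 moved to -0.35 with quantile normalization.

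As a set, 7 of the 10 genes had a negative averaged log2 fold change, with a median of -0.21. Over all loci 51.5% were negative and the median was -0.01. The 4 genes at an unadjusted p under 0.05 were Msi1, Nr2e1, Sox9 and Sox2, and 13.6% of all loci met that mark. The 3 scalings of the libraries other than the deposited one gave 7 or 8 negative genes and medians of -0.21 to -0.40. Scaling to the protein-coding sum moved all loci down together, to a median of -0.07 with 66.0% negative, and there 8 of the 10 were negative with a median of -0.29. With quantile normalization and median scaling 51.0% and 50.8% of all loci were negative.

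The effect was then taken within each sex, 3 libraries against 3. In males, none of the 10 genes was called (limma), and 0.315% of all loci were. Nr2e1 had the smallest adjusted p, 0.139, at a log2 fold change of -0.78. The others among the first 4 were Sox9 at -0.81, Msi1 at -0.55 and Sox2 at -0.36, with adjusted p-values of 0.305 to 0.692. Male dexamethasone libraries were below male vehicle libraries without overlap for 5 of the 10 genes, Msi1, Nr2e1, Sox2, Sox9 and Vim, against 6.15% of all loci. At an unadjusted p under 0.05 there were 4 of 10 genes, against 6.38% of all loci.

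In females, none of the 10 was called either (limma), against 0.482% of all loci. Msi1 came nearest at a log2 fold change of -0.72 and an adjusted p of 0.0928, followed by Sox2 at -0.48 and 0.333, Sox9 at -0.70 and 0.496 and Nr2e1 at -0.37 and 0.621. The groups did not overlap for 2 of the 10, Msi1 and Sox2, against 5.82% of all loci, and 3 of 10 had an unadjusted p under 0.05, against 8.02% of all loci. With male dexamethasone library 1 left out, where Msi1 was highest of the dexamethasone libraries, Msi1 was called in males (adjusted p = 0.0453) and in females (adjusted p = 0.0153). No other single library changed a call within a sex.

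The difference between the sexes was tested as an interaction, the female effect minus the male effect. None of the 10 genes was called (limma, adjusted p = 0.999953 for all 10), 0 had an unadjusted p under 0.05, and 0.0335% of all loci were called. The values ran from -0.17 for Msi1 to 0.41 for Nr2e1, whose 95% interval was -0.12 to 0.94. A difference as large as the averaged fall of Nr2e1, with the smaller fall in females, lay inside that interval.

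Under vehicle, female libraries were set against male libraries. None of the 10 genes was called (limma), 0 had an unadjusted p under 0.05, and 0.0737% of all loci were called. Vim averaged 2401 ± 322 FPKM in female vehicle libraries and 2841 ± 121 FPKM in male vehicle libraries (SD, n = 3 each), and all 3 female values were lower, as at 3.54% of all loci. Prom1 was at 2.83, 1.78 and 1.98 FPKM in female vehicle libraries, against 1.44, 1.46 and 1.16 FPKM in male vehicle libraries, and all 3 female values were higher, as at 5.67% of all loci. The adjusted p of both was 0.892.

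**Figure D3:**
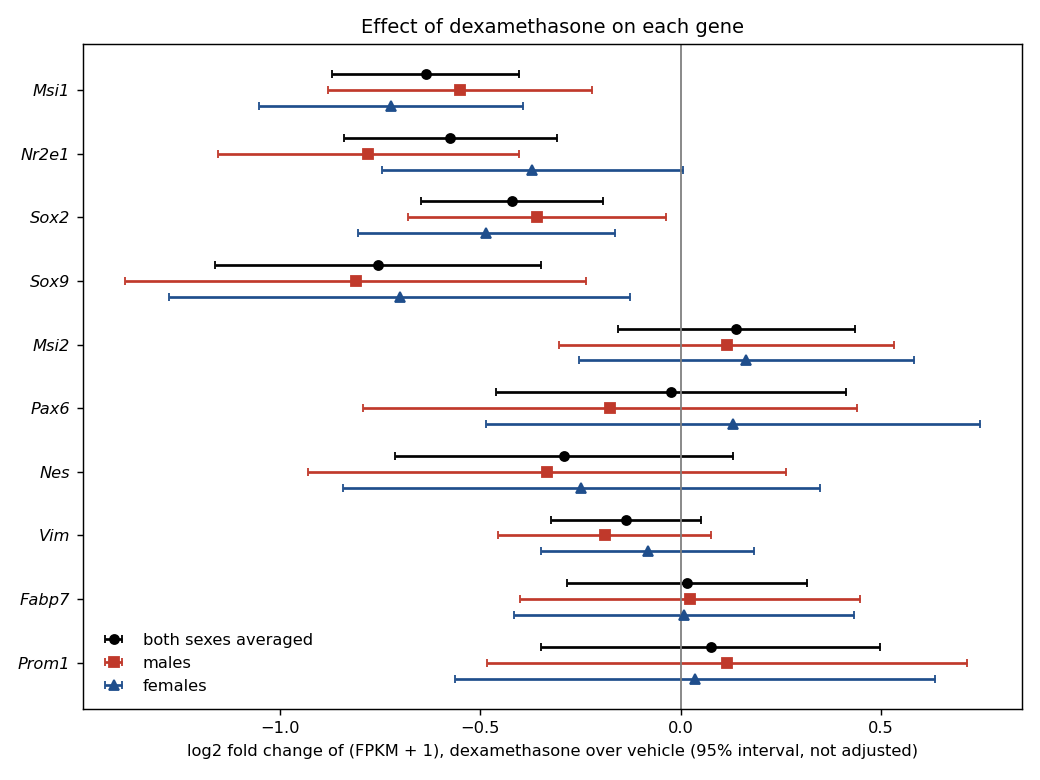
Log2 fold change of (FPKM + 1), dexamethasone over vehicle (x axis), for each of the 10 genes, averaged over the sexes (black), in males (red) and in females (blue), with unadjusted 95% intervals. The averaged intervals of Msi1, Nr2e1, Sox2 and Sox9 lie below 0, from -0.42 for Sox2 to -0.76 for Sox9 at their centres, and those of the other 6 genes cross 0.

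Library by library the genes did not move as a block. Counting the genes that stood below every vehicle library of the same sex gave 6, 6 and 7 of 10 in male dexamethasone libraries 1, 2 and 3 and 5, 6 and 3 of 10 in the female ones. Over all loci tested, the share below every vehicle library of the sex was 23.5% to 29.7% in the male libraries and 19.7% to 26.9% in the female ones, lowest in female library 3. Counting genes above every vehicle library gave 2, 2 and 1 of 10 in the male libraries and 1 of 10 in each female one, against 22.2% to 29.4% of all loci. Female dexamethasone library 3, with 3 genes, was the library where Nr2e1 and Sox9 overlapped the vehicle values.

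A wider list of 32 other neural stem cell genes was read beside these 10. Of them 30 were tested, in 31 loci because Fgfr2 falls in 2 joined rows, and 1 was called lower, 0 higher and 30 loci were not called. The called gene was Egfr, the receptor through which epidermal growth factor drives neurosphere growth. It was at 113, 137 and 127 FPKM in male dexamethasone libraries, against 143, 160 and 171 FPKM in male vehicle libraries, and at 125, 131 and 140 FPKM in female dexamethasone libraries, against 156, 187 and 172 FPKM in female vehicle libraries. Neither sex overlapped, and all dexamethasone libraries were below all vehicle libraries, as at 0.804% of all loci tested. Egfr fell by 0.35 on the log2 scale (SE 0.07; limma, adjusted p = 0.0450). Leaving out any 1 library other than male or female vehicle library 1 ended that call, at adjusted p-values of 0.0535 to 0.128, as did leaving out any of the 3 library pairs (0.147 to 0.193).

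Of the 31 loci 26 had a negative log2 fold change, with a median of -0.12 and a range of -0.70 to 0.87. With quantile normalization and median scaling 26 and 25 were negative, and with scaling to the protein-coding sum, which moved all loci down, 28 were. Both ends of the range were uncalled. At the low end, Ccnd2, a cyclin of dividing progenitors, had a log2 fold change of -0.70 (SE 0.39; limma, adjusted p = 0.450). At the high end, Hopx, a homeodomain-only protein found in quiescent stem cells, was at 13.1, 14.6 and 14.5 FPKM in male dexamethasone libraries, against 7.76, 6.84 and 6.07 FPKM in male vehicle libraries. In females it was at 15.3, 9.31 and 9.16 FPKM under dexamethasone, against 9.57, 4.03 and 5.07 FPKM under vehicle. Its log2 fold change was 0.87 (SE 0.19; limma, adjusted p = 0.0566), opposite in sign to the members that fell, and without female vehicle library 1 it was called at an adjusted p of 0.00867. The other 11 fits that each left out 1 library did not call Hopx, at adjusted p-values of up to 0.144 (limma). Ccnd2 and Hopx were singled out after their values were seen.

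**Figure D4:**
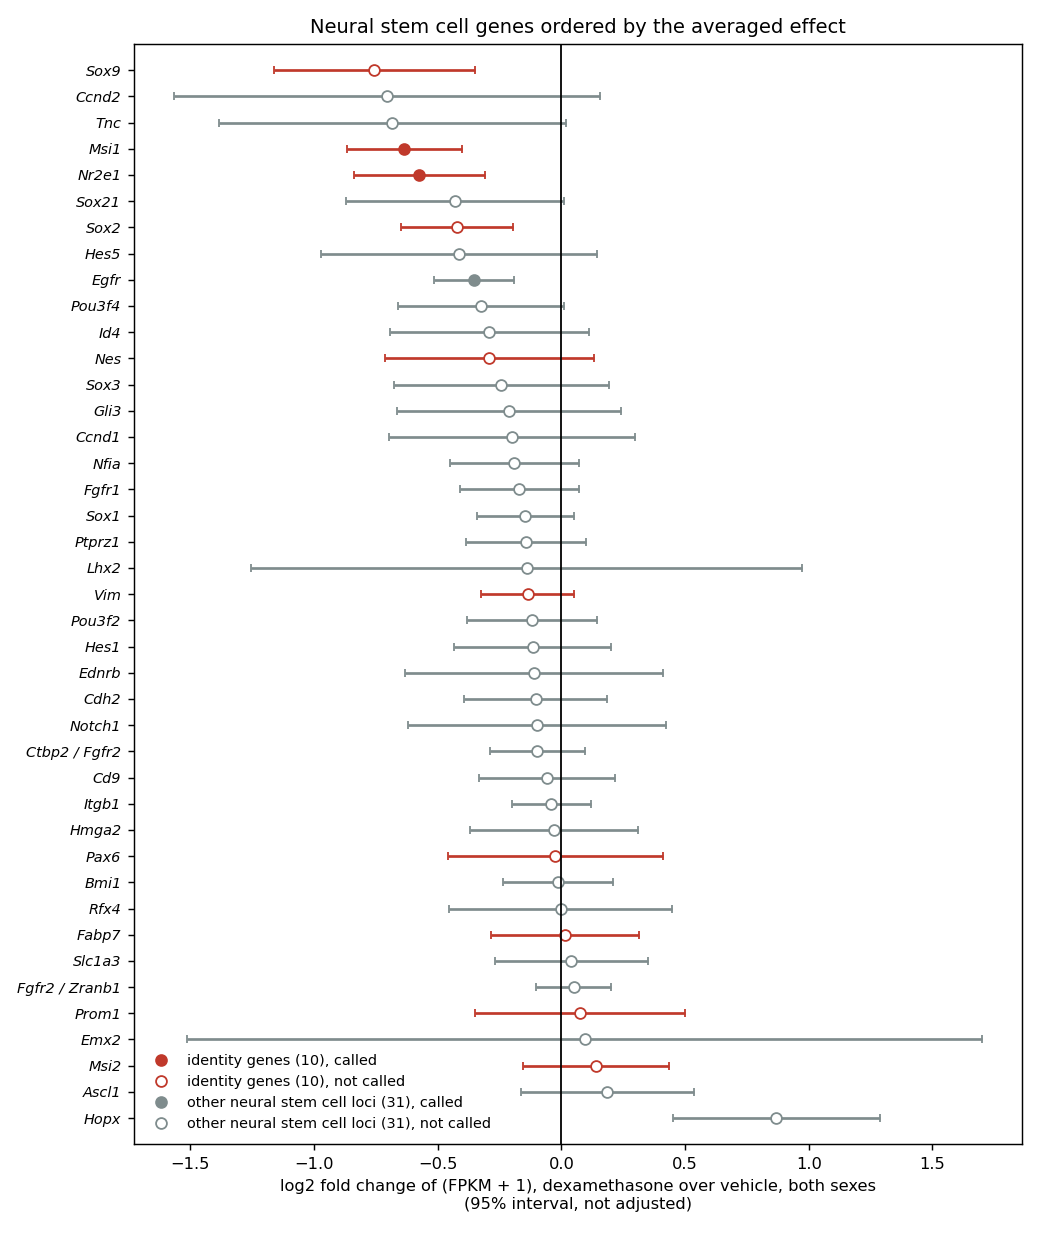
Averaged log2 fold change of (FPKM + 1), dexamethasone over vehicle (x axis), with unadjusted 95% intervals, for the 10 identity genes (red) and 31 other neural stem cell loci (grey), ordered by value from the top. Filled points, Msi1, Nr2e1 and Egfr, were called, and most loci lie left of 0, with Sox9 at -0.76 first and Hopx at 0.87 last.

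Relatives of the 10 genes were read by family. Of 15 other SOX genes 11 were tested, and 1 was called lower, 0 higher and 10 not called, with a median log2 fold change of -0.15. That gene was Sox13, a SoxD factor, at 3.09, 3.38 and 2.71 FPKM in male dexamethasone libraries, against 5.72, 4.73 and 6.74 FPKM in male vehicle libraries. Female Sox13 values were 2.77, 2.18 and 3.05 FPKM under dexamethasone, against 4.65, 4.31 and 5.27 FPKM under vehicle. All dexamethasone libraries were below all vehicle libraries, as at 0.804% of all loci tested. Sox13 fell by 0.69 on the log2 scale (SE 0.10; limma, adjusted p = 0.00863), called also with each library left out in turn. The most abundant SOX relatives, Sox4 at 89.3 FPKM and Sox8 at 75.0 FPKM over the 12 libraries, had log2 fold changes of 0.06 and 0.31 and were not called (limma, adjusted p of 0.813 and 0.544).

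None of 8 other Pax genes averaged 1 FPKM. Of 13 other intermediate filament genes 6 were tested and 0 called (limma), with a median log2 fold change of -0.20. The most abundant were the nuclear lamins Lmnb1 at 73.9 FPKM and Lmna at 28.2 FPKM. Their log2 fold changes were -0.23 and -0.57 (limma, adjusted p of 0.568 and 0.208). Of 9 other fatty acid binding protein genes only Fabp5 was tested, at 243 FPKM and a log2 fold change of 0.05 (limma, adjusted p = 0.938).

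The genes tied to the 2 members that fell showed no called change. All 15 partners and targets of NR2E1 on the list, such as the corepressor genes Atn1 (in a joined locus, 248 FPKM) and Hdac2 (155 FPKM), were tested and 0 were called (limma), with a median log2 fold change of 0.01 and a range of -1.35 to 0.66. The low end was Wnt7a, a WNT ligand and target of NR2E1, singled out after its values were seen. It was at 2.86, 6.92 and 11.7 FPKM in male dexamethasone libraries, against 15.7, 16.8 and 34.0 FPKM in male vehicle libraries, and at 5.27, 14.8 and 9.79 FPKM in female dexamethasone libraries, against 18.7, 32.4 and 15.8 FPKM in female vehicle libraries. Every dexamethasone library was below every vehicle library, as at 0.804% of all loci tested. Its log2 fold change of -1.35 (SE 0.35, 95% interval -2.14 to -0.56; limma, adjusted p = 0.121) was further from 0 than that of any of the 10 identity genes, with a wider interval. Of 6 Musashi partners and targets 3 were tested and 0 called (limma). The most abundant were Pabpc1, a poly(A) binding protein, at 81.7 FPKM, and the cell cycle inhibitor gene Cdkn1a at 77.4 FPKM, with log2 fold changes of -0.37 and 0.36. Numb, whose messenger RNA Musashi represses, was at 7.08 ± 1.25 FPKM under dexamethasone and 8.62 ± 0.548 FPKM under vehicle (SD, n = 6 each; limma, adjusted p = 0.307).

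Markers of cells that stem cells give rise to were read in the same fit. Of 15 neuronal markers 8 were tested and 0 called (limma), and their summed level was 357 to 489 FPKM in male dexamethasone libraries, 393 to 498 in male vehicle libraries, 321 to 430 in female dexamethasone libraries and 342 to 447 in female vehicle libraries. Of 10 astrocytic markers, all tested, 1 was called higher, the joined locus of the glutamine synthetase gene Glul, with 322 ± 69.3 FPKM under dexamethasone and 146 ± 52.9 FPKM under vehicle (SD, n = 6 each; limma, adjusted p = 0.0291). That call was kept in 3 of the 12 fits that each left out 1 library, those without female dexamethasone library 3, female vehicle library 2 or male dexamethasone library 2, and the other 9 gave adjusted p-values of 0.0616 to 0.0803. Without the male libraries numbered 2 or 3 its adjusted p was 0.0763 and 0.127. Of 10 oligodendrocyte lineage markers 9 were tested and 1 was called higher, Cspg4, the NG2 proteoglycan gene of precursors and of mural cells, with 21.7 ± 3.29 FPKM under dexamethasone and 12.3 ± 1.43 FPKM under vehicle (SD, n = 6 each; limma, adjusted p = 0.0114). The part of other cell types in the changes of the stem cell genes was not tested.

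The astrocytic markers together summed to 1099 to 2633 FPKM in male dexamethasone libraries, 876 to 1648 in male vehicle libraries, 1654 to 2557 in female dexamethasone libraries and 1228 to 2706 in female vehicle libraries, so the groups overlapped. The 2 endothelial and 2 ependymal markers that were tested, of 10 and 6, were not called (limma). Of 10 mural and fibroblast markers 3 were tested and Cspg4 was the 1 called.

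The 3 named loci whose log2 values over the 12 libraries were most like those of each called gene were sought among 9751 loci averaging at least 5 FPKM. For Msi1 these were Gab1 (Pearson r = 0.944), Abtb2 (0.928) and Arl4a (0.913). For Nr2e1 they were Kif1c (0.926), Dpagt1 (0.892) and Gbf1 (0.884). These are descriptions over 12 libraries that share treatment and sex groups. Of these 6 loci, the 3 most like Msi1 were themselves called lower under dexamethasone (limma), and the 3 most like Nr2e1 were not called. The adjusted p-values of the first 3 were 0.0279, 0.0131 and 0.00410 in that order. Because loci were picked for following Msi1 over the same libraries, their calls are no separate evidence.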

How the data were processed

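The deposited table held FPKM values per locus for the 12 libraries, made by the authors on GRCm38; the submitters' processing notes name TopHat2 2.0.9, Cufflinks 2.2.1 and Cuffdiff 2.2.1. Libraries came from a stranded total RNA kit, per the labels. Which annotation, strand option and library scaling the authors used is not given in the sources at hand, which leaves antisense and overlapping genes uncertain. Coordinates come from GENCODE M21 (GRCm38).

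Here log2(FPKM + 1) was fitted with limma 3.58.1 in R 4.3.3 over all 12 libraries, with 1 mean per group and a mean-variance trend (lmFit, contrasts, eBayes), on the 14931 loci averaging at least 1 FPKM. Tests were two-sided, adjusted by the Benjamini-Hochberg method over all loci tested, and called under 0.05. Group values are means ± SD of FPKM. The code was tested on simulated data. In the averaged effect it recovered 38.8% of simulated log2 changes of 0.5 and 76.1% of changes of 1. Within a sex it recovered 11.9% and 58.2%, so changes of the sizes seen here could be missed there. An exact 0 can be a failed estimate.

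The 10 genes and all 19 gene lists were chosen with earlier results of these data known, so their direction is not independent evidence. Genes named outside the 10 were those called in the averaged effect, the most abundant of each family or partner list, and the 3 loci most correlated with each called gene. Other genes chosen after their values were seen are marked where they stand. Numb, Gfap, the hypothalamic genes and the neighbouring loci carry no such mark. They were also named outside these rules, for context, and count as chosen after their values were seen. Alternatives were other pseudocounts, filters and scalings, a robust fit, a block for the replicate number, smaller fits and leaving out libraries. Samples were grouped by the labels. Depth is unknown, so no counting intervals are given.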

Additional observations from a re-analysis of the deposited data

How the results depend on the processing

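Of 582 values of single genes under the alternatives, 511 kept their sign and side of the threshold, 45 lost a call, 10 gained one and 16 changed sign. Of the 10 genes, 2 were called in the averaged effect. Only 1, Msi1, was called with a pseudocount of 5 FPKM, with no filter, with a mean of at least 5 FPKM or with quantile normalization, where Nr2e1 had adjusted p-values of 0.0610, 0.0968, 0.0742 and 0.0702. Leaving out 1 library called 1 to 3 of them. Scaling to the protein-coding sum, chosen after seeing the data, called 3, with Sox2 at an adjusted p of 0.0422.

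Leaving out both male libraries numbered 2, both male libraries numbered 3 or both female libraries numbered 2, also chosen after seeing the data, called 0 of the 10. Msi1 then had log2 fold changes of -0.61, -0.59 and -0.56 and adjusted p-values of 0.0941, 0.0824 and 0.0906. These fits hold fewer libraries, and called 104, 138 and 135 loci in all, against 229.

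Over all loci, leaving out 1 library gave 146 to 215 calls in the averaged effect, 28 to 49 in males (main 47), 31 to 74 in females (main 72), 4 to 14 for the interaction (main 5) and 9 to 23 for the sexes under vehicle (main 11). Among the 10 it gave 0 to 1 in males and 0 to 1 in females. Fits on the 6 libraries compared called 21 loci in males, 27 in females and 21 for the sexes under vehicle. Without the male libraries numbered 2 there were 14 in males and 9 for the interaction, without those numbered 3 there were 28 and 10, and without the female libraries numbered 2 there were 42 in females, 13 for the interaction and 18 for the sexes.

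Fabp7 had a log2 fold change of -0.35 with quantile normalization, -0.0592 with protein-coding scaling and -0.00045 without the female libraries numbered 2. Pax6 was at 0.0245 without the male libraries numbered 3 and 0.0755 without the female libraries numbered 2. With 1 library left out the values ran from -0.0551 to 0.102 for Fabp7, -0.161 to 0.0829 for Pax6 and -0.0492 to 0.199 for Prom1. Protein-coding scaling moved the median of all loci to -0.0716, against -0.00674 as deposited. The cause of the other changes was not tested.

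With the replicate number as a block, 804 loci were called in the averaged effect (5.38% of those tested, 420 higher and 384 lower), 148 in males, 187 in females and 8 for the interaction. Of the 10 genes 5 were called lower: Msi1, Nr2e1, Nes, Sox2 and Sox9, at adjusted p-values of 0.0238, 0.0256, 0.0324, 0.0370 and 0.0430. The labels do not say that a number marks a shared culture, and deviations of same-numbered libraries correlated at 0.0819 to 0.167 within a sex. They were not all over 0.1, so the libraries were taken to share only a number. As a hint from the data, every dexamethasone library correlated best with the vehicle library of its own number, and different numbers gave -0.147 to 0.0338.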

Other observations

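Regional genes on the lists read above set some libraries apart. Emx2, a homeobox gene of dorsal forebrain progenitors, was at 0.268 FPKM in female dexamethasone library 2 and 0.234 FPKM in female vehicle library 2, against 0.602 to 10.6 FPKM in the other 10 libraries. Lhx2, another forebrain homeobox gene, was at 0.143 and 0.236 FPKM in the same libraries, against 0.820 to 5.64 FPKM elsewhere. Pax3, a gene of the dorsal neural tube, was at 2.69 and 3.64 FPKM there, against at most 0.493 FPKM elsewhere. These genes were chosen after their values were seen.

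Gfap, the filament gene of astrocytes, covered a wide range within each group. It was at 78.0, 19.3 and 1.15 FPKM in male dexamethasone libraries 1, 2 and 3, against 52.5, 10.1 and 1.15 FPKM in male vehicle libraries 1, 2 and 3. In females it was at 52.3, 12.8 and 11.1 FPKM under dexamethasone, against 19.6, 13.1 and 4.31 FPKM under vehicle.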
